A study of Mus musculus with 6 samples.

Results

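Chemokine genes were followed in the RNA of cultured mouse CD8+ T cells. They were taken as the rows of the count table whose symbol was 1 of 7 listed names (Ccl1, Ccl3, Ccl4, Ccl5, Ccl9, Xcl1 and Cxcl10). Rows were taken by name only, but the names were listed with earlier results of these data known. The choice of members was thus not blind to the data. Of the 7, 4 had a row among the 11922 genes, namely Ccl3, Ccl4, Ccl5 and Xcl1, and all 4 passed the low-count filter that left 11759 genes for testing. Ccl1, Ccl9 and Cxcl10 were not analysed here.

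CD8+ T cells were taken from spleens of C57BL6/J mice on magnetic beads against CD8 alpha, activated with anti-CD3/anti-CD28 beads for 72 hours, and expanded for a further 4 days, with IL-2 at 100 units per ml throughout. One group received water (vehicle) and the other 0.25 mM aminooxyacetic acid (AOA), which inhibits enzymes that depend on pyridoxal 5'-phosphate, the active form of vitamin B6. Cells of the same 3 mice entered both groups, which gave 3 vehicle and 3 AOA libraries on day 7, numbered by mouse. Mice of both sexes above a minimum age were used in the study, and the methods give no sex or exact age for each donor of these libraries. Every culture is a bulk sample, so fewer cells of a type cannot be told apart from less RNA per cell.

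Chemokines are small secreted proteins that guide moving leukocytes through receptors coupled to G proteins. They are sorted by their cysteines, with an adjacent pair in CC chemokines such as Ccl3, Ccl4 and Ccl5 and fewer cysteines in the C chemokine Xcl1. Activated CD8+ T cells are known to release Ccl3, Ccl4 and Ccl5, which attract T cells and myeloid cells, and Xcl1, which acts on dendritic cells that carry Xcr1. These messages can rise within hours of T cell receptor stimulation, whereas the libraries were made after 4 days without the beads.

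Ccl5 lies on mouse chromosome 11 (chr11:83525778-83530518, minus strand, GRCm38, GENCODE vM21). Ccl3 (chr11:83647844-83649355, minus strand) and Ccl4 (chr11:83662584-83664683, plus strand) lie beside each other, with starts 13.2 kb apart, and the start of Ccl5 is 118.8 kb from that of Ccl3. Xcl1 is on chromosome 1 (chr1:164931644-164935527, minus strand). Each of the 4 coding transcripts has 3 exons. The coding bases of codons 21 to 80 are shown because they hold the cysteine codons, set in capitals, that define each class and set the members apart as sequences.
Ccl5: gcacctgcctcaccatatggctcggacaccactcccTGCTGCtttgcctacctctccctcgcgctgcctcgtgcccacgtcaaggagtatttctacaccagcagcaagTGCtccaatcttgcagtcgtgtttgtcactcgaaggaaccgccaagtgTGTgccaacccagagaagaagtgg
Ccl4: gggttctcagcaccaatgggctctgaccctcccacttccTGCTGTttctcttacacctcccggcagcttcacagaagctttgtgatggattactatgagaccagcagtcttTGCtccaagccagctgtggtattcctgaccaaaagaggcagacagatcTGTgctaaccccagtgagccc
Ccl3: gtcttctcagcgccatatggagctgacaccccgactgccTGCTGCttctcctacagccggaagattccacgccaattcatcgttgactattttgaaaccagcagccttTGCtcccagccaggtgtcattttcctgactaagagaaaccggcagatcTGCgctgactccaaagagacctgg
Xcl1: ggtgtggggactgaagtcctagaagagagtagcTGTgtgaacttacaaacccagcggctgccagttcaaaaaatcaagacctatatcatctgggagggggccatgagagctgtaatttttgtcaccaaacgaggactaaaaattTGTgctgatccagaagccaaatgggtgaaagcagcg

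The 3 CC chemokines each hold 4 cysteine codons in this stretch with 1 adjacent pair, at codons 34 and 35 in Ccl3 and Ccl4 and at codons 33 and 34 in Ccl5. Xcl1 holds 2 in the same stretch and no adjacent pair. Over aligned coding bases, Ccl3 and Ccl4 were 69.6% identical, Ccl3 and Ccl5 61.9%, and Ccl4 and Ccl5 59.7%. No run of 75 bases, the read length, was shared by any pair of the 4 transcripts, and the longest shared run was 13 bases. Ccl3, Ccl4 and Ccl5 shared no 31-base run with a transcript of another annotated gene, while Xcl1 shared 70 of its 493 such runs with Gm20743, so its counts are uncertain to that extent.

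Ccl5 was by far the most abundant of the 4 messages in vehicle cells and the one that fell most with AOA. Ccl4 fell too, by a smaller factor, while Ccl3 and Xcl1 did not pass the test. It was edgeR's quasi-likelihood test, adjusted over all tested genes after Benjamini and Hochberg at a threshold of 0.05, and by it 2 of the 4 members were lower with AOA. Across all genes 26.8% were lower, 26.2% were higher and 53.0% changed in either direction, so 2 of 4 called is close to the share of all genes that changed. No member was higher, a count of 0 in edgeR at an unadjusted p under 0.05 too and a count of 0 with DESeq2 and with limma, which called 3 and 2 members lower.

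Ccl5 (Entrez gene 20304), a chemokine that effector and memory CD8+ T cells are known to store and release, had 4155, 6279 and 3767 counts in vehicle replicates 1, 2 and 3. It had 184, 217 and 101 counts in AOA replicates 1, 2 and 3. Normalised for library size and composition, its level was 330, 398 and 204 CPM (counts scaled to a common library size) with vehicle and 8.46, 11.5 and 5.09 CPM with AOA. Every vehicle library stood far above every AOA library, and mouse 2 was the highest and mouse 3 the lowest of both groups. The vehicle mean of 311 ± 98.2 CPM (SD, n = 3) was 37.3 times the AOA mean of 8.34 ± 3.19 CPM. In edgeR this was a log2 fold change of -5.22 with a standard error of 0.36 and an adjusted p of 1.51e-05, the 40th largest fall among the 3147 genes called lower.

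The fall of Ccl5 was nearly the same in each animal. On the scale of log2 CPM with a prior count of 2 it was -5.27 in mouse 1, -5.10 in mouse 2 and -5.30 in mouse 3. With each library left out the log2 fold change stayed between -5.51 and -4.96, and it was -5.24 with the mouse as a replicate block. Ranked by level per gene length, Ccl5 exceeded 99.0% of the genes in the table with vehicle and 60.6% with AOA.

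Ccl4 (Entrez gene 20303, also called MIP-1 beta), which attracts T cells and monocytes, was a low-abundance message. It had 40, 151 and 68 counts in the vehicle libraries, or 3.17, 9.57 and 3.69 CPM. With AOA it had 51, 31 and 29 counts, or 2.34, 1.64 and 1.46 CPM. The groups did not overlap, but vehicle replicate 1 lay close to AOA replicate 1, and vehicle replicate 2 stood well above the rest. Means were 5.48 ± 3.55 CPM for vehicle and 1.82 ± 0.467 CPM for AOA (SD, n = 3). The edgeR log2 fold change was -1.59, with a standard error of 0.45 and an adjusted p of 0.0147. Leaving out vehicle replicate 2 brought it to -0.88 (adjusted p = 0.0307 by edgeR). Leaving out AOA replicate 3 brought it to -1.45, which missed the threshold (adjusted p = 0.0538 by edgeR).

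Ccl3 (Entrez gene 20302, also called MIP-1 alpha), a ligand of Ccr1, was the scarcest member. The vehicle libraries held 17, 78 and 18 counts, or 1.35, 4.95 and 0.977 CPM. The AOA libraries held 11, 20 and 16 counts, or 0.506, 1.06 and 0.807 CPM. The ranges overlapped, since vehicle replicate 3 was below AOA replicate 2, and only vehicle replicate 2 was clearly high. Means were 2.42 ± 2.19 and 0.790 ± 0.276 CPM (SD, n = 3). The change on the log2 scale was -1.62 (standard error 0.62, 95% interval -3.02 to -0.22), which narrowly missed the threshold (adjusted p = 0.0526 by edgeR), with a lower level in 3 of 3 mice. It passed with mouse as the replicate block (-1.38, adjusted p = 0.0207 by edgeR) and with DESeq2 (-1.62, adjusted p = 0.0359). It also passed without vehicle replicate 1 (-1.88, adjusted p = 0.0468 by edgeR) and without vehicle replicate 3 (-1.99, adjusted p = 0.0195), the low vehicle libraries. Without vehicle replicate 2 it was -0.51 (adjusted p = 0.329 by edgeR).

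Xcl1 (Entrez gene 16963, lymphotactin), which attracts dendritic cells that carry Xcr1, had 22, 87 and 67 counts in the vehicle libraries, or 1.75, 5.52 and 3.64 CPM. It had 88, 78 and 58 counts in the AOA libraries, or 4.05, 4.12 and 2.93 CPM. The AOA values lay inside the range of the vehicle values, and Xcl1 was higher with AOA in mouse 1 and lower in mice 2 and 3. The means were 3.63 ± 1.88 and 3.70 ± 0.670 CPM (SD, n = 3), a log2 fold change of 0.02 (adjusted p = 0.977 by edgeR). The 95% interval of that change, from -0.86 to 0.89, does not show that the groups were alike. Of the 4 members, 2 had groups that did not overlap, against 62.1% of all tested genes.

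**Figure D1:**
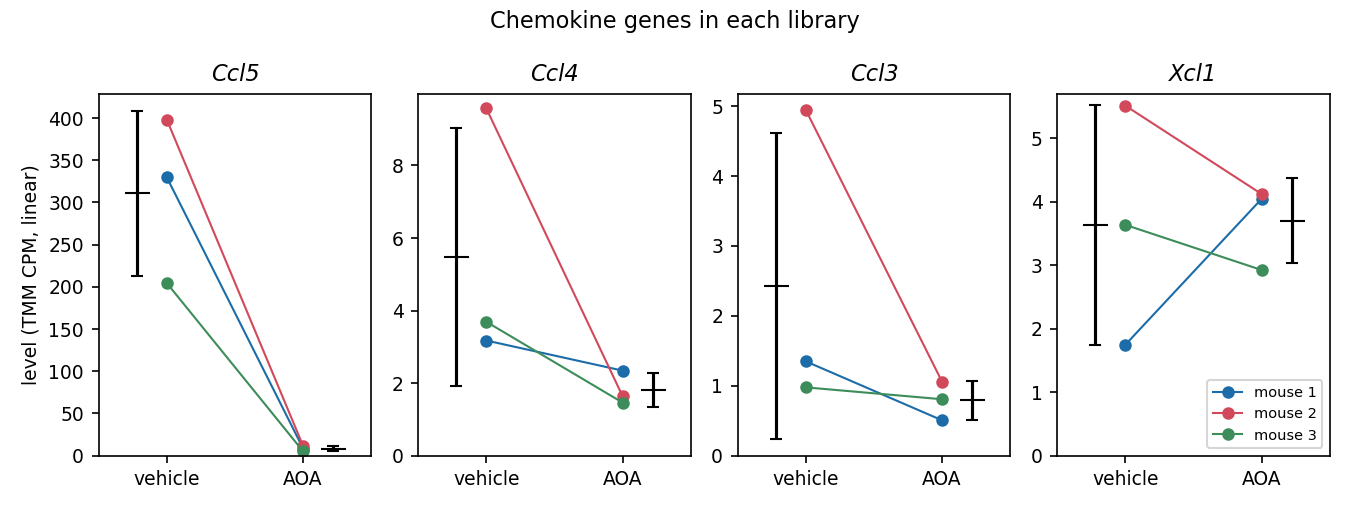
TMM-normalised level (CPM, linear axis from 0) of each chemokine gene in each library, with the 2 libraries of a mouse joined by a line and the mean ± SD of each group (n = 3) in black beside the points. Ccl5 dropped from between 204 and 398 CPM to between 5.09 and 11.5 CPM in all 3 mice, while mouse 2 alone gave the high vehicle values of Ccl4 and Ccl3 and the lines of Xcl1 crossed.

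The fall of Ccl5 also changed the make-up of the chemokine messages. Levels of different genes are compared here as RPKM, which divides CPM by gene length in kilobases. Ccl5 gave 98.4%, 95.9% and 96.5% of the summed RPKM of the 4 members in vehicle replicates 1, 2 and 3. In AOA replicates 1, 2 and 3 it gave 56.5%, 64.2% and 51.4%. It was thus still the largest part in every AOA library. The share of Xcl1 lay between 0.551% and 1.82% with vehicle and between 24.4% and 31.2% with AOA, although its own level had not passed the test.

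In vehicle cells the order by mean RPKM was Ccl5 (585 ± 185), Ccl4 (8.30 ± 5.39), Xcl1 (7.24 ± 3.75) and Ccl3 (3.07 ± 2.77), where values are mean ± SD with n = 3. Ccl4 and Xcl1 lay within each other's spread, and Ccl3 was the lowest of the 4 in every vehicle library, although its range over the libraries overlapped theirs. In AOA cells it was Ccl5 (15.7 ± 6.01), Xcl1 (7.37 ± 1.33), Ccl4 (2.75 ± 0.707) and Ccl3 (1.000 ± 0.349). Here the libraries of Xcl1, from 5.83 to 8.21 RPKM, lay above those of Ccl4, from 2.22 to 3.55 RPKM, which lay above those of Ccl3, from 0.640 to 1.34 RPKM. The ratio of Ccl4 to Ccl3, both beside each other on chromosome 11, was 3.22 ± 1.16 (SD, n = 3) with vehicle and 3.19 ± 2.05 (SD, n = 3) with AOA, and that of Ccl5 to Ccl4 was 83.2 ± 40.7 and 5.84 ± 2.48.

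Summed over the 4 members, the level was 631, 781 and 399 RPKM in the vehicle libraries and 28.2, 33.6 and 18.7 RPKM in the AOA libraries. Without Ccl5, the other members together gave 9.996, 31.8 and 14.1 RPKM with vehicle and 12.3, 12.03 and 9.07 RPKM with AOA. The sum was thus far apart between the groups with Ccl5 and overlapped without it. No test was made of these sums, since an exact permutation test of 3 against 3 libraries cannot give a p below 0.1.

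**Figure D2:**
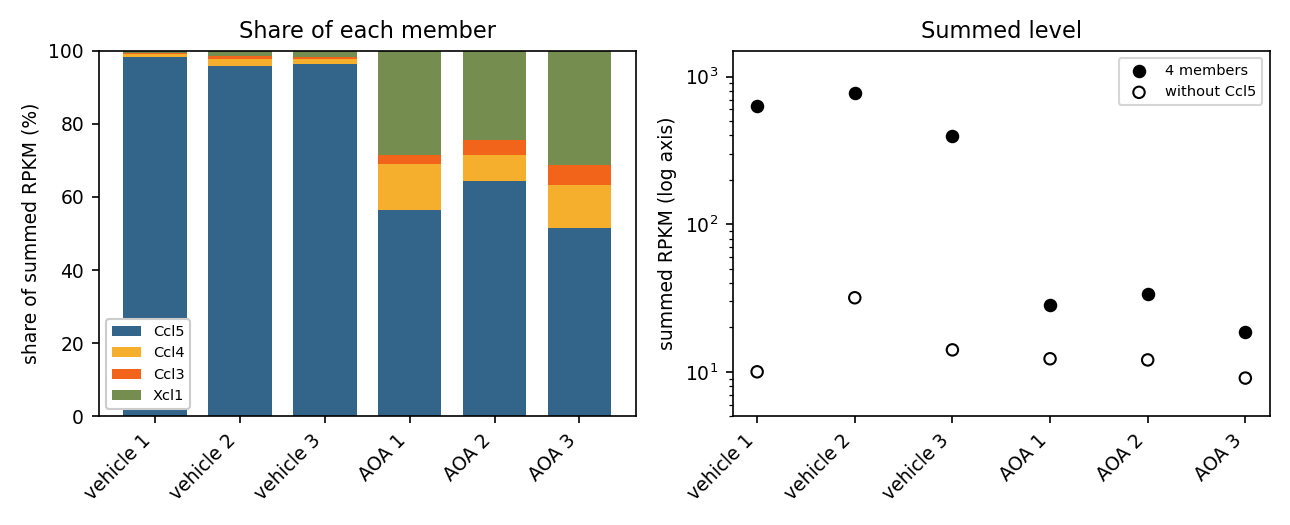
Left, share (%) of each chemokine gene in the summed RPKM of the 4 members, 1 bar per library. Right, summed RPKM on a log axis for all 4 members (filled) and without Ccl5 (open), where vehicle (399 to 781 RPKM) lies above AOA (18.7 to 33.6 RPKM) with Ccl5 and the open points of the groups overlap.

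Of 34 further chemokine genes listed, 4 had a row and 2 passed the filter. Ccl27a, known from skin, had 22, 10 and 24 counts with vehicle and 14, 9 and 6 with AOA, and was called lower (log2 fold change -1.34, adjusted p = 0.0425 by edgeR). That call was lost under limma, DESeq2 and no low-count filter and on leaving out any library but vehicle replicate 2, with an adjusted p of up to 0.160. Ccl25, known from thymus and gut, did not pass (log2 fold change 0.30, adjusted p = 0.503 by edgeR). The median log2 fold change of the 4 members was -1.60, against -0.02 over all tested genes. It rests on Ccl3 (-1.62, not called) and Ccl4 (-1.59), which were -0.51 and -0.88 without vehicle replicate 2.

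Chemokine receptors were measured in the same libraries. A first list was drawn up for all 7 chemokine names, so it holds Cxcr3, a receptor of the unmeasured Cxcl10, and Ccr4, best known for ligands outside the names. Of 6 genes of that list counted here, 4 had a row and all 4 were called, with 3 lower and 1 higher, against 53.0% called, 26.8% lower and 26.2% higher among all tested genes. Of these only Ccr1 and Xcr1 are given here as receptors of a measured member, and both were lower. Ccr3 and Ccr8 were not analysed here. Ccr1, a receptor of Ccl3 and Ccl5, had 33, 174 and 71 counts with vehicle and 2, 2 and 3 with AOA, and its log2 fold change was -5.58 (adjusted p = 2.41e-04 by edgeR). Vehicle replicate 2 was the highest library for Ccr1, as it was for Ccl3 and Ccl4.

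Xcr1, the receptor of Xcl1, was lower (log2 fold change -2.17), although it held only 55, 83 and 84 counts with vehicle. Cxcr3, the receptor of Cxcl10, fell less (-0.72), and Ccr4, whose ligands include Ccl22, rose from 12.5 ± 4.27 to 29.99 ± 3.601 CPM (SD, n = 3; log2 fold change 1.26, adjusted p = 0.00241 by edgeR). Of 15 other chemokine receptor genes, 8 were tested, of which 2 were lower and 2 higher, a share called that is close to the 53.0% of all genes. Ccr2, a receptor of monocyte chemoattractants, fell by 2.94 and Cxcr6 by 0.96 on the log2 scale, while Ccr9 (2.60) and Cx3cr1 (1.83) rose from under 1 CPM. The call of Cxcr6 was lost without vehicle replicate 1, vehicle replicate 3 or AOA replicate 3 (adjusted p up to 0.0774 by edgeR). That of Cx3cr1 was lost with DESeq2 and without any library but vehicle replicate 2 (adjusted p up to 0.0930).

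**Figure D3:**
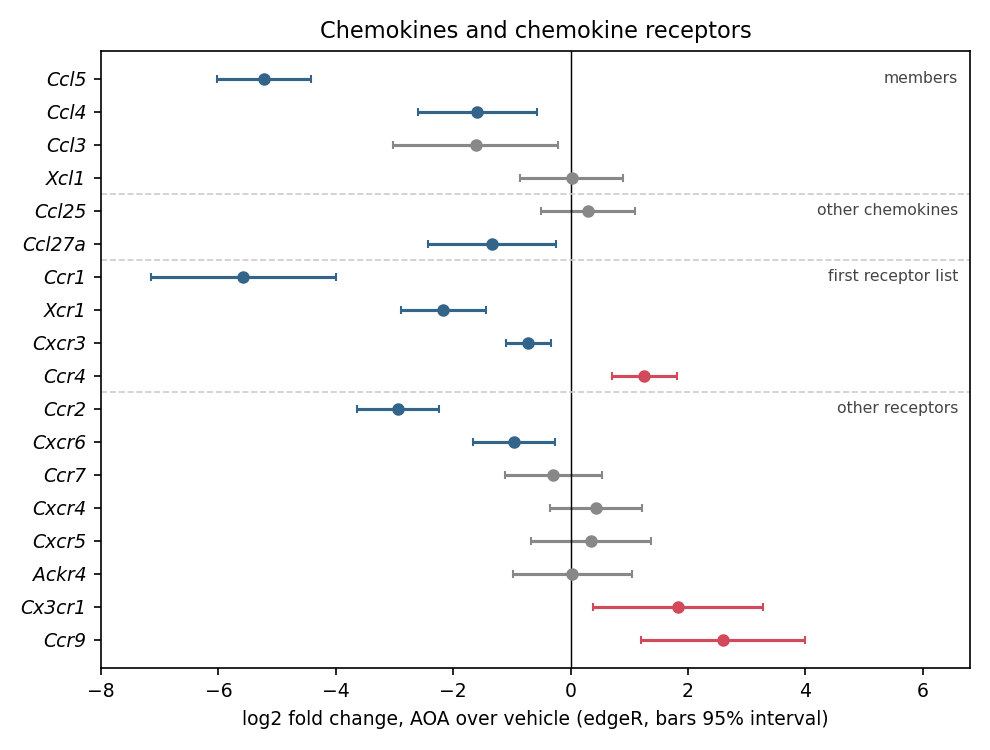
Log2 fold change of AOA over vehicle for the chemokine and chemokine receptor genes reported here (edgeR, 3 libraries per group, bars are 95% intervals), in blue where lower, red where higher and grey where the adjusted p was 0.05 or more. Ccl5 (-5.22) and Ccr1 (-5.58) lie farthest to the left, and Ccr9 (2.60) farthest to the right.

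Vehicle replicate 2 held the highest level of all 4 members among the vehicle libraries and stood apart on the second principal component, at -44.2 against 21.9 and 19.4 for vehicle replicates 1 and 3. Without it the log2 fold change of Ccl5 was -4.97 against -5.22 with all libraries, while that of Ccl4 was -0.88 against -1.59 and that of Ccl3 -0.51 against -1.62. In that library Klrb1c, a receptor of natural killer cells that T cells can also carry, reached 111 CPM against 41.7 and 20.1 CPM in vehicle replicates 1 and 3. Ncr1, a defining marker of natural killer cells, had 37 counts there and 0 in vehicle replicates 1 and 3, where a count of 0 allows up to 0.238 and 0.163 CPM by counting error. In AOA replicates 1, 2 and 3 Ncr1 had 5, 11 and 3 counts, higher than with vehicle in mice 1 and 3 and lower in mouse 2. Natural killer cells are also known to make Ccl3, Ccl4, Ccl5 and Xcl1, and the part of such cells in these values was not tested.

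**Figure D4:**
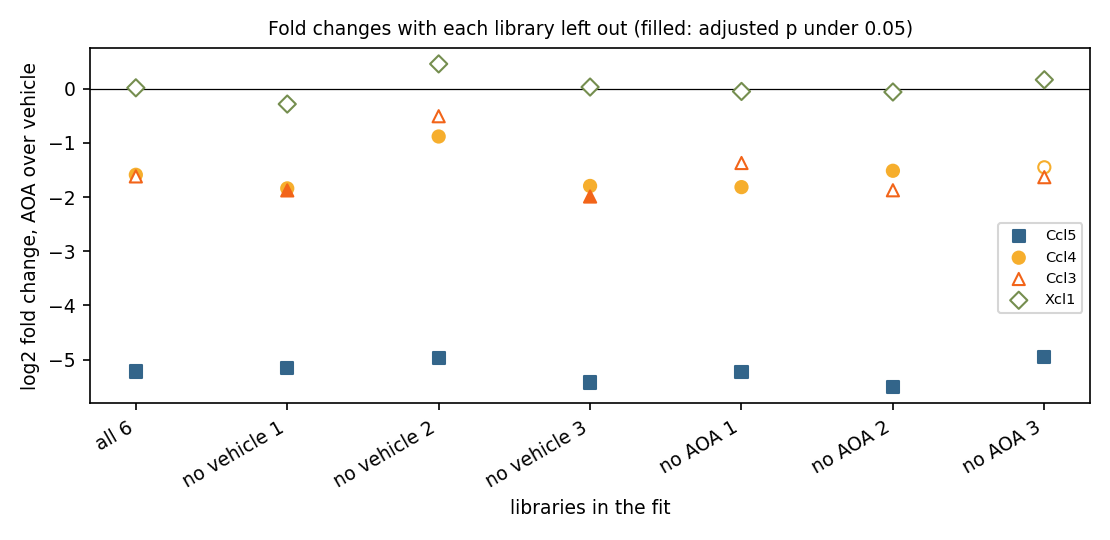
Log2 fold change of AOA over vehicle for each chemokine gene with all 6 libraries and with each library left out in turn (edgeR), filled where the adjusted p was under 0.05. Ccl5 stayed between -5.51 and -4.96, and leaving out vehicle replicate 2 moved Ccl4 to -0.88 and Ccl3 to -0.51.

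The CD8 T cell markers were present in every library, with a summed level of Cd8a, Cd8b1, Cd3e, Cd3d and Cd3g between 2908 and 3737 CPM with vehicle and between 3994 and 4644 CPM with AOA, and 2 of these 5 were higher, Cd8b1 not without AOA replicate 3. Beside the marker counts given here, 26.8% of all tested genes were lower and 26.2% higher. Of 4 CD4 T cell markers, 3 were lower. The other, Foxp3, was higher in each of the 3 mice but did not pass with all libraries (log2 fold change 0.36). The sum of the 4 went from between 158 and 210 CPM to between 33.0 and 54.3 CPM. Of 9 myeloid markers, 5 had a row and 2 of the 3 tested were lower, with sums of 56.2 to 68.3 CPM and 5.01 to 8.46 CPM. The lower genes were Itgam, which activated CD8+ T cells can carry and which gave most of the sum with vehicle (log2 fold change -5.25), and Cd68 (-1.91), which gave most of it with AOA. Mpeg1, also tested, did not pass (-0.001). Lyz2 and Cd14 were too low to test and went opposite ways. Lyz2 had 0, 5 and 0 counts with vehicle and 6, 22 and 2 with AOA, higher in each of the 3 mice. Cd14 had 13, 16 and 5 counts with vehicle and 0, 1 and 0 with AOA. Of 4 natural killer markers, 3 had a row and 1 of 2 tested was lower. That gene was Klrb1c, with 6.99, 11.05 and 3.38 CPM in the AOA libraries and a log2 fold change of -3.02 (adjusted p = 0.00310 by edgeR). Klrb1c was lower with AOA in each of the 3 mice. The other natural killer markers with a row did not share this. Ncr1, too low to test, was lower only in mouse 2, and Eomes did not pass (log2 fold change 0.04). The summed level of the natural killer list (145 to 308 and 128 to 213 CPM) is mostly Eomes, also held in the list of T cell factors below. Of 3 platelet markers, 2 were tested and both were lower (3.74 to 9.05 and 1.21 to 1.61 CPM), Gp1ba not without vehicle replicate 1. The dendritic cell list had a row for 1 of 5, which is Xcr1 itself. Of 5 B cell markers, 4 were tested and 1 was higher (12.6 to 16.6 and 22.6 to 30.7 CPM), and of 4 erythroid markers none was analysed here. Their part in the chemokine values was not tested.

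Over the 6 libraries, Id2, a regulator of effector T cells, was among the genes with a profile most like that of Ccl4, of 8763 genes with a mean of at least 10 CPM. The measure was the Euclidean distance between log2 CPM values centred per gene, which was 0.543 for Id2 (Pearson r 0.980, as a description of libraries that share the group difference). Slco4a1 and Bspry were nearest to Ccl3 (distances 0.699 and 0.741), and Gucy2e and Ltb4r1 to Ccl5 (0.792 and 0.887). Ltb4r1, a receptor of the chemoattractant leukotriene B4, had a log2 fold change of -5.80. Zfp456 and Psrc1 were nearest to Xcl1 (0.512 and 0.658), and neither passed the test.

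Of 6 genes of the table that start within 200 kb of Ccl3, Ccl4 or Ccl5 and are not members, 5 were tested and 1 was lower. This is near the share of all tested genes called lower, 26.8%. The lower neighbour was Heatr9, named here after its value had been seen, which starts 8.3 kb from the start of Ccl5 on the same strand (chr11:83511736-83522175), with 3602 bases between the annotated genes. It had 327, 268 and 307 counts with vehicle and 4, 7 and 1 with AOA. The groups did not overlap, with a log2 fold change of -6.59 (adjusted p = 1.44e-05 by edgeR) and a range of -7.28 to -6.15 with each library left out. Taf15 (0.33), Mmp28 (0.37), Heatr6 (-0.02) and 1700020L24Rik (-0.40), which start farther from Ccl5, did not pass. Ccl6, which lies between Ccl5 and Ccl3, was too low to test, with at most 2 counts in 5 libraries and 16 in AOA replicate 2. No tested gene of the table starts within 200 kb of Xcl1.

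**Figure D5:**
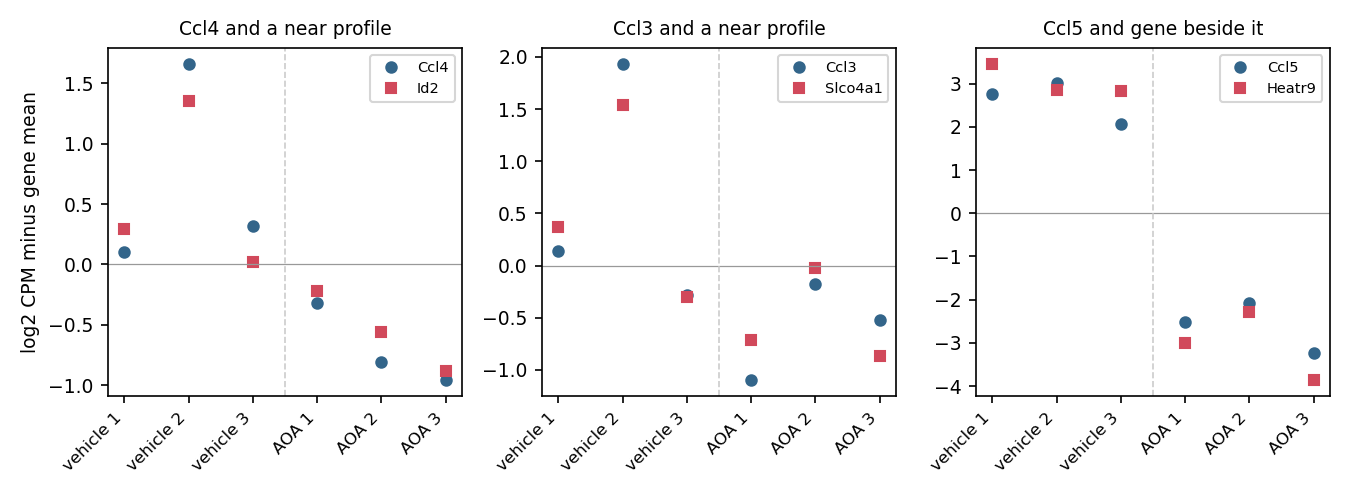
Log2 CPM minus the gene's own mean over the 6 libraries, for Ccl4 with Id2, Ccl3 with Slco4a1 and Ccl5 with Heatr9, vehicle libraries to the left of the dashed line. Vehicle replicate 2 is the high point of the first 2 pairs, while Ccl5 and Heatr9 separate the groups in every library.

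Genes that are known to act on chemokine transcription were counted from lists. Of 10 NF-kB genes, all tested, 7 were lower, with Tnfaip3 at -3.45, Relb at -1.23, Nfkbia at -1.02 and Nfkb1 at -0.98 on the log2 scale, while Rela did not pass (-0.22, adjusted p = 0.280 by edgeR). Tnfaip3 and Nfkbia are known both as targets of NF-kB and as its inhibitors. Of 8 calcium and NFAT genes, 2 were lower (Nfatc3, -0.63, and Ppp3cc, -0.53) and 2 higher (Ppp3r1, 0.46, and Ppp3cb, 0.38), and the call of Ppp3cb was lost with mouse as the replicate block (adjusted p = 0.0522 by edgeR) and without vehicle replicate 1 or 3 or AOA replicate 2 or 3 (up to 0.0710). That of Nfatc3 was lost without vehicle replicate 3 (adjusted p = 0.0544 by edgeR).

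Of 11 T cell factors and cytokines tied to effector chemokines, 10 were tested, with 5 lower and 2 higher. The lower genes were the transcription factors Bhlhe40 (-2.48), Prdm1 (-2.31), Runx3 (-1.29), Tbx21 (-0.74) and Klf13 (-0.60), the last of which is known to act on the Ccl5 promoter. The call of Klf13 was lost without vehicle replicate 1 or 3 (adjusted p up to 0.0805 by edgeR). The cytokines Lta (2.31) and Tnf (1.35) were the higher genes. Ifng and Eomes did not pass (log2 fold changes -0.54 and 0.04).

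Of 19 interferon pathway and response genes counted here, 12 were lower, among them Ifit1 (-2.29), Rsad2 (-2.18), Mx1 (-2.07) and Ifngr1 (-1.72), a receptor chain of interferon gamma. Their median was -1.06, and the calls of Irf8 and Gbp3 were each lost on leaving out 1 or more single libraries (adjusted p up to 0.101 and 0.163 by edgeR). Of 8 genes of secretory granules and exocytosis, 3 were lower and 1 higher. They were Stx11 (-1.29), Stxbp2 (-0.78), Srgn (-0.46) and Vamp7 (0.79), and the call of Srgn was lost with mouse as the replicate block (adjusted p = 0.0550 by edgeR) and without vehicle replicate 1 or 3 or AOA replicate 2 or 3 (up to 0.193). For these lists the share of all tested genes called lower, 26.8%, is the background given above.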

How the data were processed

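RNA of CD8+ T cells was measured in 3 vehicle and 3 AOA libraries. The authors prepared stranded mRNA libraries, mapped paired-end reads with STAR under its default options, counted uniquely mapped reads and deposited the raw counts per gene. The submitters' processing notes also name mm10 and featureCounts. No source used here gives the annotation, the strand setting or a gene filter. Total counts per library lay between 12881962 and 21997078, and limits given for a count of 0 cover counting error only.

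The tests were run with edgeR 4.0.16 under R 4.3.3 (filterByExpr with a minimum count of 10, TMM, robust quasi-likelihood test, group as the only term, Benjamini-Hochberg over 11759 genes). Standard errors and 95% intervals were derived from the test statistic and include the spread between replicates. CPM used TMM library sizes, log2 CPM a prior count of 2, and RPKM the deposited gene length. A limit for a count of 0 was taken as 3 counts per library. Alternatives were DESeq2 1.42.0, limma 3.58.1 (voom), 2 other normalisations, 2 other filters, a log2 fold change of at least 1, the mouse as a replicate block and each library left out. Steps were tested on simulated data.

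Same-numbered libraries come from the same mouse per the labels, and across genes the deviations of such a pair from their group means had correlations of 0.0868, 0.189 and 0.194. Replicates differed by more than sampling noise (chi-square per gene 10.0 to 71.1). Coordinates, transcripts and neighbours came from GENCODE vM21 of GRCm38, the assembly that mm10 names, and coding bases were aligned with Biopython 1.88. The members and gene lists were chosen with earlier results of these data known. Named are all members, the first receptor list, up to 4 called genes per direction of each list, and the 2 genes nearest in profile to a member. Some listed genes are not reported here and were left out of the list counts. Genes named beyond that were chosen after their values were seen.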

Additional observations from a re-analysis of the deposited data

How the results depend on the processing

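The number of members called lower, 2, became 1 when at least 10 CPM in 3 libraries was required, since only Ccl5 was then tested, and lay between 1 and 3 when single libraries were omitted, at 1 without AOA replicate 3 and at 3, with Ccl3, without vehicle replicate 1 or 3. With the same filter 6 of the 14 other chemokine and receptor genes were tested, of which 1 was higher and 3 were lower in place of 3 and 6. With each library left out, the log2 ratio of the summed level, -4.49, ranged from -4.70 to -4.23, and the log2 fold change of Xcl1 ranged from -0.28 to 0.46. Its sign turned without vehicle replicate 1 (-0.28), AOA replicate 1 (-0.05) or AOA replicate 2 (-0.06), none of which was called. The call of Ccl5 and its direction held under all 14 alternatives. With the mouse as a replicate block Ccl3 was gained (-1.38, adjusted p = 0.0207 by edgeR), Ppp3cb and Srgn were lost as given above, Nfatc1 was gained (adjusted p = 0.0470), and no other call of a listed gene changed. Ccl3 and Xcl1 rest on 11 to 88 counts per library, which limits their precision.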
